A study of Mus musculus with 12 samples.

Results

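Asparagine synthetase (Asns), 2 enzymes of proline synthesis (Aldh18a1 and Pycr1) and 7 carrier genes that bring amino acids into cells (Slc7a1, Slc7a5, Slc3a2, Slc1a4, Slc1a5, Slc38a2 and Slc6a9) were followed in mouse kidney tissue lacking fumarate hydratase. The 10 genes were chosen by name, as genes of amino acid supply known to respond to cellular stress, with earlier results of these data known. The normalised table held 23863 probes, and 13 of them carried the symbol of 7 of the 10 genes: 3 probes each for Asns, Slc1a5 and Slc38a2 and 1 each for Aldh18a1, Slc3a2, Slc1a4 and Slc6a9. Pycr1, Slc7a1 and Slc7a5 had no probe under their own symbol and were not analysed here.

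Expression was measured on Illumina BeadChip arrays in 3 groups of 4 arrays each, from C57BL/6 mice aged 15 weeks, when cystic disease is at an early stage. Fh1-/- mice lacked Fh1, the gene for the enzyme that converts fumarate to malate, in kidney tubule cells. Fh1-/-Hif-1α-/- mice, called double knockouts below, also lacked Hif-1α, a subunit of the hypoxia-inducible transcription factor, in the same cells. Both deletions were driven by Ksp-Cre, a recombinase under the promoter of a cadherin specific to kidney epithelium, so cells outside the tubules and some tubules keep Fh1. Siblings from the same litters served as controls: some had no Ksp-Cre, and others had Ksp-Cre but kept a wild-type allele. The labels do not say which kind each control array came from. The labels call the tissue of every array, controls included, cysts, whereas the study's methods describe kidneys. In such bulk tissue, fewer cells of a type and less RNA per cell cannot be told apart. The study asked how transcription differs pairwise between these groups, which gives 3 comparisons.

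When amino acids run short, or when the endoplasmic reticulum or mitochondria are under stress, kinases phosphorylate the translation factor eIF2α, most protein synthesis slows and translation of the transcription factor ATF4 rises. ATF4, together with C/EBP partners, then activates genes that restore amino acids: synthesis enzymes such as asparagine synthetase and carriers at the cell surface. The proximal tubule of the kidney has in addition a separate set of carriers that recover filtered amino acids from the urine.

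ATF4 and C/EBP proteins bind a composite element, searched here as the letters TGATGNAAN on both strands of RefSeq promoter windows (GRCm38.p6, 300 bases: 250 before and 50 after each start). The windows of 8 of the 10 genes were found, 11 in all, and none for Slc7a5 and Slc1a5. The letters stood in 3 of these 11 windows, those of Asns, Slc1a4 and Pycr1, and in 3.95% of all 32851 windows (1299). The promoters of Asns, Slc1a4 and Aldh18a1 are shown because they set 3 cases side by side: a gene that rose and holds the letters, one that holds them and did not pass the test, and one that rose and has none in its window. Each runs 5′ to 3′ along the gene, from 150 bases before the start to 10 after, on the minus strand, with a match in capitals (chr6:7693200-7693359, chr11:20332704-20332863 and chr19:40588454-40588613, in this order).
Asns: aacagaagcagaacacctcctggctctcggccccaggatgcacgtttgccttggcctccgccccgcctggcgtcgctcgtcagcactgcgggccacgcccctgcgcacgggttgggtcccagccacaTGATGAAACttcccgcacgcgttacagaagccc
Slc1a4: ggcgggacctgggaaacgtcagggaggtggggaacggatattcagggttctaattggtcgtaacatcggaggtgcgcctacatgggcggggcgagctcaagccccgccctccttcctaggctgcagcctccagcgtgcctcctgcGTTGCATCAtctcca
Aldh18a1: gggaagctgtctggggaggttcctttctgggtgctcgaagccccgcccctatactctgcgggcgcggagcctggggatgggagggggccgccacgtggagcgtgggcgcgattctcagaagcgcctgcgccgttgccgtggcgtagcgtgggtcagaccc
In Asns the match, TGATGAAAC, began 23 bases before the start on the gene's own strand. In Slc1a4 it spanned the start and was read on the opposite strand as TGATGCAAC. In Pycr1, not printed, TGATGCAAT began 103 bases before the start. The core of the antioxidant response element bound by NRF2, searched as TGACNNNGC on both strands, was found in 5 of the 11 windows (Asns, Slc38a2, Slc7a1 and 2 windows of Slc6a9) and in 12.39% of all windows (4071). These matches describe letters and say nothing of binding.

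The arrays were alike in overall brightness, with 75th percentiles of the deposited log2 signal between 11.06 and 11.12. Arrays numbered 1 and 2 in each group were parted from those numbered 3 and 4 by the second principal component, which held 18% of the variance, and the values of each set are given where they matter. Control replicate 4 stood apart from the other controls in several of the genes below, and it was the only control with a high Xist signal (13.28, against 7.16 to 7.43), as also seen on Fh1-/- replicates 1 and 3 and double-knockout replicates 2 and 3 (12.07 to 13.49). The labels name no sex. Fh1 itself, on its brightest probe, read 13.98 to 14.24 in Fh1-/- against 14.23 to 14.28 in controls (difference -0.14, adjusted p = 0.446). In double knockouts it read 13.76 to 14.10 and fell by 0.40 (adjusted p = 0.0141). Hif1a differed by 0.35 in Fh1-/- (adjusted p = 0.37) and was higher by 0.85 in double-knockout kidneys (adjusted p = 0.0164), both on its brightest probe. Its dimmer probe rose by 0.97 in Fh1-/- (adjusted p = 0.0457), differed by -0.19 in double knockouts (adjusted p = 0.647) and was lower by 1.16 in these than in Fh1-/- (adjusted p = 0.0993). Whether any of these probes lies inside the deleted exons is not given in the sources used here, so they do not check the labels. Cell-type markers also moved: 5 of 7 proximal tubule markers fell in double-knockout kidneys and 2 in Fh1-/-, whereas macrophage markers rose in 6 and 4 of 7 and principal cell markers of the collecting duct in 5 and 2 of 5. The mean level of the macrophage markers was 9.84 to 10.23 in controls, 10.58 to 11.25 in Fh1-/- and 10.85 to 11.20 in double-knockout kidneys, and that of the principal cell markers 11.39 to 11.55, 11.95 to 12.24 and 12.75 to 13.04. Markers of tubular injury rose in 7 and 4 of 7 (mean level 9.04 to 9.43 in controls, 10.32 to 11.33 in Fh1-/- and 11.35 to 11.52 in double knockouts) and proliferation genes in 5 and 1 of 6, while 3 and 2 of 3 markers of the distal convoluted tubule fell (12.91 to 13.03, 11.22 to 11.88 and 11.06 to 11.74). Thick ascending limb markers fell in 2 of 4 and fibroblast and matrix genes rose in 3 of 8 in each group. Of 4 intercalated cell markers, 1 rose in each group, 2 fell in double knockouts and 1 fell in Fh1-/-. In double knockouts 1 of 5 endothelial and 1 of 2 podocyte markers fell and 1 of 4 lymphocyte markers rose. In Fh1-/- 1 endothelial marker rose and no podocyte or lymphocyte marker passed. No red cell marker passed in either group. The part of these shifts in the results below was not tested.

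The synthesis enzymes held the largest differences from control among the 13 probes. Asns, which makes asparagine from aspartate and glutamine, and Aldh18a1, which carries out the first steps of proline synthesis from glutamate, rose in both knockout groups, whereas of the 5 measured carriers 1, Slc38a2, passed on 1 of its probes in the double knockouts and lay just beyond the threshold in Fh1-/-. Of the 13 probes, 4 rose and none fell in Fh1-/- against control, where 3.04% of all 23863 probes rose and 1.93% fell (limma moderated test, Benjamini-Hochberg adjusted p under 0.05 over all probes). In the double knockouts against control 5 of the 13 rose and none fell, where 8.62% of all probes rose and 7.97% fell. At an unadjusted p under 0.05, 5 and 7 of the 13 were higher and still none lower, where 9.43% and 14.4% of all probes were higher and 12% and 16.9% lower. The 4 probes that rose in Fh1-/- were those of Asns and Aldh18a1, and the fifth in double-knockout kidneys was 1 of the 3 probes of Slc38a2. These are counts of probes, not of separate genes. By brightest probe, 2 of the 7 genes rose in Fh1-/- and 3 in the double knockouts. In a fit of brightest probes only, 3 of the 7 rose in Fh1-/-, where 573 of 12344 genes rose and 351 fell. In the double knockouts that fit also gave 3 of the 7, where 1410 of 12344 rose and 1176 fell. The median difference of the 13 probes was 0.12 log2 units in Fh1-/- and 0.45 in the double knockouts, with medians over all probes of -0.05 and -0.06. The 2 comparisons share their 4 control arrays.

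**Figure D1:**
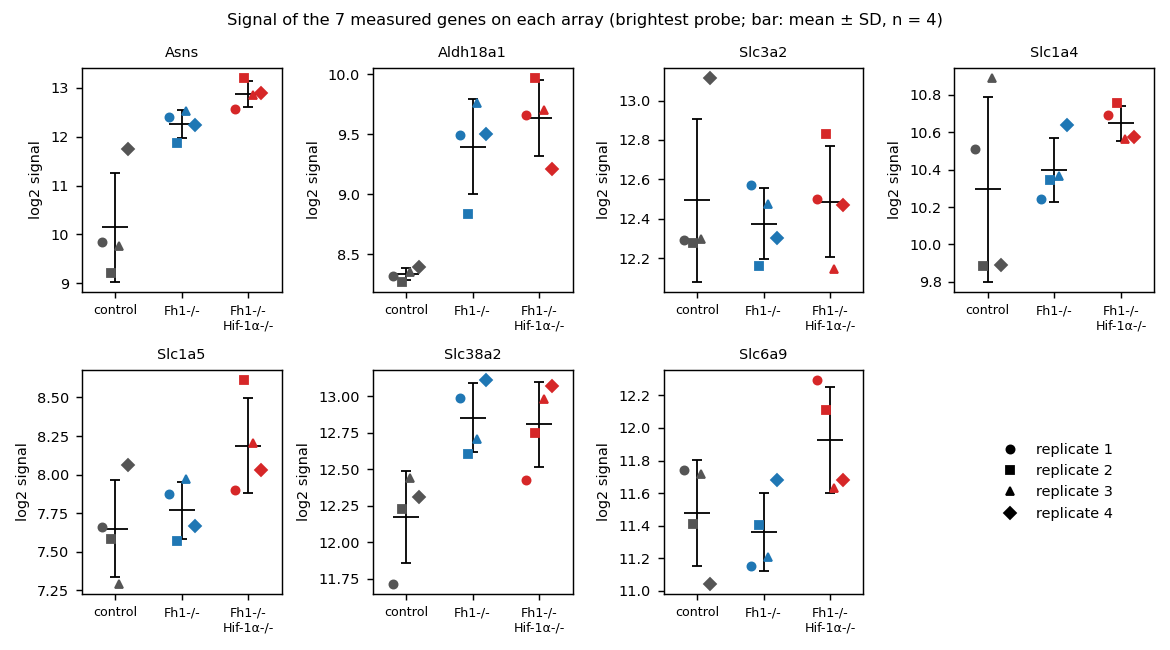
Log2 signal of the brightest probe of the 7 measured genes on each array, in control (grey), Fh1-/- (blue) and Fh1-/-Hif-1α-/- (red) kidneys, with marker shape for the replicate number and the black bar for the mean ± SD (n = 4). All knockout arrays lie above all controls for Asns and Aldh18a1, and control replicate 4 lies far above the other controls for Asns (11.75) and Slc3a2 (13.11).

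On the brightest Asns probe (ILMN_2643513), the log2 signal of control replicates 1 to 4 was 9.84, 9.21, 9.76 and 11.75. It was 12.40, 11.87, 12.53 and 12.23 in Fh1-/- and 12.56, 13.20, 12.85 and 12.89 in double-knockout kidneys. The 3 groups did not overlap, although control replicate 4 came close to the lowest Fh1-/- array. Mean signals were 10.14 ± 1.11, 12.26 ± 0.28 and 12.88 ± 0.26 (SD, n = 4), with most of the spread among controls from that one array. Asns was 4.34-fold higher in Fh1-/- than in control (log2 difference 2.12, 95% interval 1.22 to 3.01, adjusted p = 0.0129) and 6.66-fold higher in the double knockouts (2.74, 1.84 to 3.63, adjusted p = 0.000978). An exact permutation test gave 0.029 for each, two-sided, which is the smallest p that 4 arrays against 4 allow.

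The array that stood apart made these differences smaller, not larger. Without control replicate 4 the log2 differences were 2.66 and 3.27, and with Xist as a covariate 1.95 (adjusted p = 0.0052) and 2.56 (adjusted p = 0.000325). Within the arrays numbered 1 and 2 they were 2.61 and 3.35, both past the threshold, and within those numbered 3 and 4, which hold control replicate 4, they were 1.63 (adjusted p = 0.397) and 2.12 (adjusted p = 0.146). A plain test without moderation gave the Fh1-/- difference an adjusted p of 0.0511.

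The other 2 Asns probes, both dimmer, ran closely with the first over the 12 arrays (Pearson's r 0.99 and 0.93). On the second (ILMN_3006123) controls read 8.28, 8.10, 8.17 and 9.44, Fh1-/- 10.56, 9.83, 10.51 and 10.17, and the double knockouts 10.52, 11.06, 10.69 and 10.84. Its log2 differences from control were 1.77 (adjusted p = 0.00329) and 2.28 (adjusted p = 0.000227). The third (ILMN_2636755) read 7.15 to 8.08 in controls, 8.40 to 8.98 in Fh1-/- and 8.50 to 9.59 in the double knockouts. With the controls on average at the 3.98th percentile of their arrays, near the dim end, its differences of 1.15 (adjusted p = 0.0182) and 1.57 (adjusted p = 0.00101) were smaller, and the first no longer passed without control replicate 1 (adjusted p = 0.0634), control replicate 3 (0.0546), Fh1-/- replicate 1 (0.0665) or Fh1-/- replicate 3 (0.0564).

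Aldh18a1 showed the tightest controls, at 8.32, 8.27, 8.36 and 8.40. Fh1-/- arrays read 9.49, 8.83, 9.76 and 9.50, and double-knockout arrays 9.66, 9.97, 9.70 and 9.21. Every knockout array was above every control, control replicate 4 sat with the other controls, and the 2 knockout groups overlapped. Means were 8.33 ± 0.05, 9.40 ± 0.40 and 9.63 ± 0.31 (SD, n = 4). Aldh18a1 was 2.09-fold higher in Fh1-/- (log2 difference 1.06, 0.64 to 1.48, adjusted p = 0.00869) and 2.46-fold higher in the double knockouts (1.30, 0.88 to 1.72, adjusted p = 0.000875), and both calls held in each of the 12 fits that left out 1 array. Within the arrays numbered 3 and 4 the differences were 1.26 (adjusted p = 0.126) and 1.08 (adjusted p = 0.0716), and within those numbered 1 and 2 they were 0.87 (adjusted p = 0.124) and 1.52 (adjusted p = 0.0122).

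**Figure D2:**
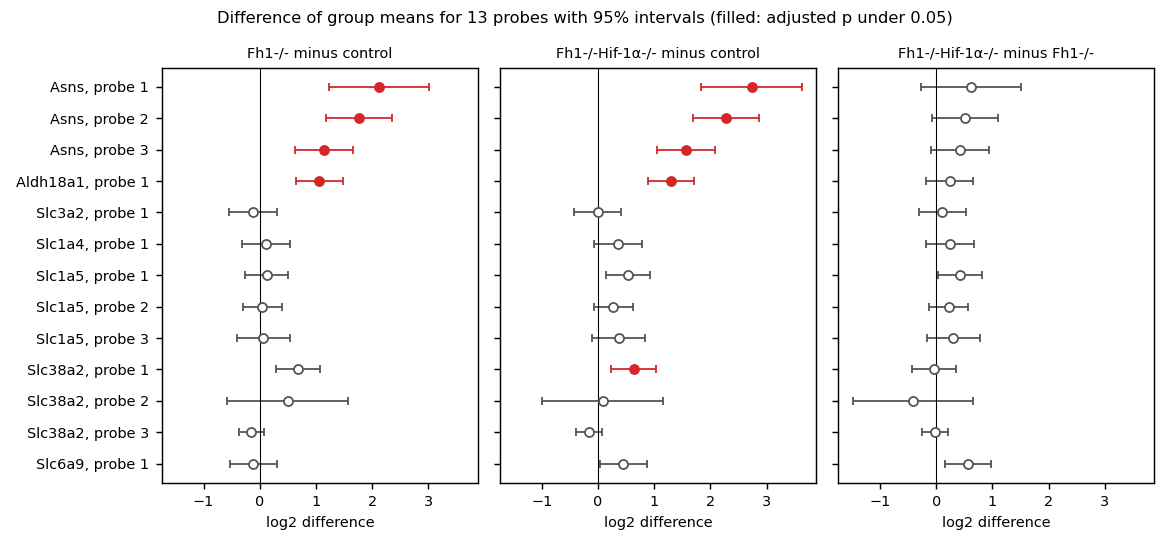
Log2 difference of the group means for the 13 probes with 95% intervals, in Fh1-/- minus control, Fh1-/-Hif-1α-/- minus control and Fh1-/-Hif-1α-/- minus Fh1-/-, with filled red points where the adjusted p was under 0.05. The 3 Asns probes and the Aldh18a1 probe pass in both comparisons with control, 1 Slc38a2 probe passes in the second, and none of the 13 passes between the knockout groups.

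Among the carriers, Slc38a2, which takes up glutamine, alanine and other small neutral amino acids with sodium, gave an answer that depended on the probe. The brightest (ILMN_2955671) read 11.72, 12.23, 12.44 and 12.31 in controls, 12.99, 12.61, 12.71 and 13.11 in Fh1-/- and 12.43, 12.75, 12.98 and 13.07 in double-knockout kidneys. All Fh1-/- arrays were above all controls, yet the difference of 0.68 (0.29 to 1.07) missed the threshold with an adjusted p of 0.0513 (exact permutation p = 0.029). It passed with the array set as a block (adjusted p = 0.0215), with array weights (0.0138), with deposited (0.041) or quantile-normalised (0.0402) values, with probes above the 25th percentile (0.043) or brightest probes (0.0389) only, and without Fh1-/- replicate 2 (0.0476) or double-knockout replicate 1 (0.0372). In double-knockout kidneys, where 1 array lay among the controls, the difference of 0.63 (0.24 to 1.02) passed with an adjusted p of 0.0327 (exact permutation p = 0.057). That call was lost with the plain test (adjusted p = 0.068) and with only those 2 groups fitted (0.0516). It was also lost without control replicate 1 (difference 0.48, adjusted p = 0.0952) or control replicate 2 (0.65, 0.0634) and without double-knockout replicate 2 (0.65, 0.0658), 3 (0.57, 0.0795) or 4 (0.54, 0.0767).

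The second Slc38a2 probe (ILMN_1244123) read 11.49, 11.91, 12.01 and 12.22 in controls, 11.56, 12.32, 12.77 and 12.97 in Fh1-/- and 10.76, 11.08, 13.15 and 12.95 in the double knockouts. It split the double knockouts by array set: replicates 1 and 2 were below every control and replicates 3 and 4 above every control. Its differences from control were 0.50 (adjusted p = 0.626) and 0.08 (adjusted p = 0.931), the latter made of -0.78 within the arrays numbered 1 and 2 and 0.94 within those numbered 3 and 4. The third (ILMN_2721692), dim at 7.85 to 8.23 on all arrays, gave -0.15 (adjusted p = 0.462) and -0.16 (adjusted p = 0.325). Over the 12 arrays the first probe ran with the second (r = 0.51) and against the third (r = -0.53).

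**Figure D3:**
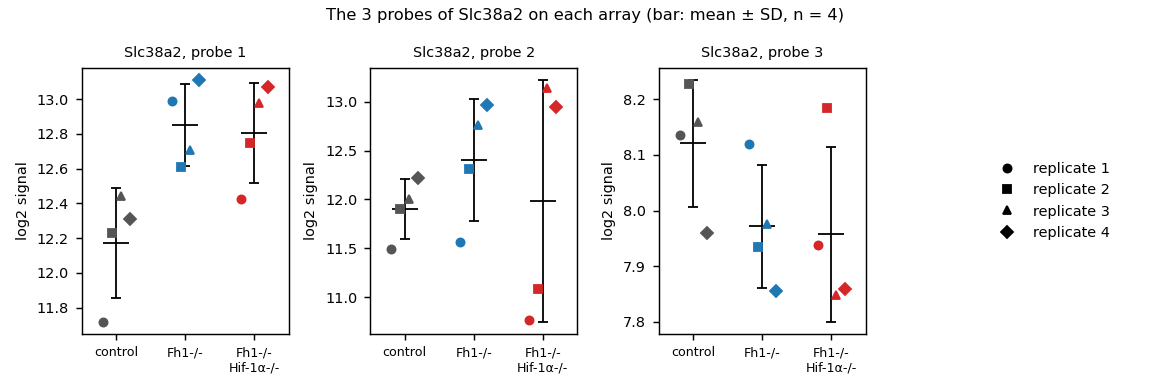
Log2 signal of the 3 Slc38a2 probes on each array by group, with marker shape for the replicate number and the bar for the mean ± SD (n = 4). Only the first probe places all 4 Fh1-/- arrays above the controls, the second parts Fh1-/-Hif-1α-/- replicates 1 and 2 (10.76 and 11.08) from 3 and 4 (13.15 and 12.95), and the third spans 7.85 to 8.23.

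Slc3a2 encodes the heavy chain that carries light chains such as Slc7a5 and Slc7a11 to the cell surface. Its signal was 12.29, 12.28, 12.30 and 13.11 in controls, 12.57, 12.16, 12.47 and 12.30 in Fh1-/- and 12.50, 12.83, 12.15 and 12.47 in double-knockout kidneys. The highest array of all was control replicate 4, and the 3 groups overlapped. Differences from control were -0.12 (-0.54 to 0.31, adjusted p = 0.79) and -0.01 (-0.43 to 0.42, adjusted p = 0.985). Without control replicate 4 they were 0.09 (adjusted p = 0.8) and 0.20 (adjusted p = 0.398).

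Slc1a5 and Slc1a4 encode exchangers of small neutral amino acids, glutamine among the substrates of the first and serine and alanine among those of the second. Slc1a5 was dim on all of its 3 probes, and its brightest (ILMN_2776585) read 7.66, 7.58, 7.29 and 8.06 in controls, 7.87, 7.57, 7.97 and 7.66 in Fh1-/- and 7.90, 8.61, 8.20 and 8.03 in double-knockout kidneys. The double knockouts lay above the controls but for control replicate 4. The difference there was 0.54 (0.15 to 0.93, adjusted p = 0.0608), against 0.12 in Fh1-/- (adjusted p = 0.766). The double-knockout difference passed with Xist as a covariate (0.45, adjusted p = 0.032), without control replicate 4 (0.67, adjusted p = 0.0205) or without double-knockout replicate 1 (0.63, adjusted p = 0.0428). It also passed with deposited values (adjusted p = 0.0441), quantile-normalised values (0.0474) or array weights (0.00993). The other 2 probes differed by 0.27 and 0.37 in the double knockouts and did not pass. The second of these (ILMN_2593148) did pass with array weights (0.55, adjusted p = 0.0407) and within the arrays numbered 1 and 2 (0.64, adjusted p = 0.0402). Slc1a4 read 10.51, 9.89, 10.89 and 9.89 in controls, 10.24, 10.35, 10.36 and 10.64 in Fh1-/- and 10.69, 10.76, 10.56 and 10.58 in the double knockouts. The double knockouts were close together and the controls wide, with control replicate 3 the highest array. Neither the 0.10 of Fh1-/- (adjusted p = 0.82) nor the 0.35 of the double knockouts (adjusted p = 0.248) passed, and the latter did without control replicate 3 (0.55, adjusted p = 0.0446).

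Slc6a9, a glycine carrier, read 11.74, 11.41, 11.72 and 11.04 in controls, 11.15, 11.41, 11.21 and 11.68 in Fh1-/- and 12.29, 12.11, 11.63 and 11.68 in double-knockout kidneys. Double-knockout replicates 1 and 2 were the highest of the 12 arrays, and replicates 3 and 4 lay within the controls. The differences from control were -0.12 (adjusted p = 0.79) and 0.45 (0.03 to 0.87, adjusted p = 0.131). The latter passed with Xist as a covariate (0.52, adjusted p = 0.0479) and within the arrays numbered 1 and 2 (0.63, adjusted p = 0.0469), and was 0.27 within those numbered 3 and 4 (adjusted p = 0.638).

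Loss of Hif-1α in addition to Fh1 was tested by setting the 2 knockout groups against each other. None of the 13 probes passed with limma or with the plain test without moderation, and 2, those of Slc6a9 and the brightest of Slc1a5, had an unadjusted p under 0.05, both higher in the double knockouts. Over all probes 0.138% rose and 0.0503% fell in this comparison, and 5.38% were higher and 3.44% lower at an unadjusted p under 0.05. The brightest Asns probe was 0.62 higher in the double knockouts (-0.28 to 1.51, adjusted p = 0.793) and its groups did not overlap (exact permutation p = 0.029). Aldh18a1 differed by 0.24 (-0.18 to 0.65, adjusted p = 0.862), Slc38a2 on its brightest probe by -0.05 (adjusted p = 0.987), Slc1a5 by 0.42 (adjusted p = 0.521) and Slc6a9 by 0.57 (0.15 to 0.98, adjusted p = 0.341). These intervals leave room for a difference of either sign in Asns and Aldh18a1. Cell-type markers moved between these groups as well: 2 of 5 principal cell markers and 1 of 7 tubular injury markers were higher in the double knockouts. No marker of the other lists passed. The part of these shifts in the differences above was not tested.

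Many regulators and effectors around ATF4 rose with loss of Fh1. Of 20 listed genes 19 were measured by their brightest probe; 9 rose in Fh1-/- and 12 in the double knockouts against control and none fell in either, with 15 and 14 higher at an unadjusted p under 0.05 and none lower. Their median difference was 0.80 and 0.84, with -0.03 over all genes in both. Trib3, a pseudokinase that restrains ATF4, rose by 3.22 in Fh1-/- (9.34-fold) and by 4.25 in the double knockouts (19.0-fold). Atf5, a transcription factor related to ATF4, rose by 3.03 and 3.17, and Ddit3, the transcription factor CHOP, by 2.37 and 2.67. Chac1, which degrades glutathione, rose by 2.44 and 2.77, Nupr1, a stress-induced chromatin protein, by 2.04 and 2.55, and Eif4ebp1, a repressor of cap-dependent translation, by 1.41 and 1.70. The transcript of Atf4 itself rose by 0.51 in Fh1-/- (adjusted p = 0.027), and its 0.34 in the double knockouts did not pass (adjusted p = 0.0661). The eIF2α kinases Eif2ak1, Eif2ak2 and Eif2ak3 passed in neither comparison, with differences between -0.19 and 0.22. These are transcript levels, and the activity of the kinases was not measured. None of the 19 passed between the knockout groups with limma, where 2 were higher at an unadjusted p under 0.05 and Trib3 differed most, by 1.03 (adjusted p = 0.128).

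Control replicate 4 lay with the other controls in some of these genes and apart in others. Trib3 read 8.30, 8.17, 7.66 and 8.24 on control replicates 1 to 4 and Ddit3 9.61, 10.03, 9.63 and 9.32, so neither showed that array high. Eif4ebp1 read 11.16, 11.19, 11.22 and 12.21 and, like Asns, did.

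Other enzymes of proline, asparagine and glutamine metabolism fell where they passed the test. Of 12 measured out of 17 listed, 2 fell in Fh1-/- and 7 in the double knockouts, and none rose in either, with 7 and 8 lower at an unadjusted p under 0.05 and none higher. With 1 array left out these counts were 0 to 5 and 3 to 7: in Fh1-/- 0 without any of control replicates 1, 2 and 3, Fh1-/- replicates 1 and 3 and double-knockout replicates 2 and 4, and 5 without double-knockout replicate 3, and in the double knockouts 3 without control replicate 1 and 4 without control replicate 2 or double-knockout replicate 2. Their median difference was -0.40 and -0.63. Aldh4a1, which completes the breakdown of proline to glutamate, fell by 0.50 and 0.73, and Nit2, an ω-amidase of glutamine and asparagine breakdown, fell by 0.61 and 0.68. In double-knockout kidneys Prodh, which opens proline breakdown, fell by 0.52, Pycr3, a reductase of proline synthesis, by 0.60 and Glul, glutamine synthetase, by 0.65. The urea cycle enzymes Ass1, which uses aspartate, and Asl fell by 0.81 and 0.83 there. The mean level of the proximal tubule markers moved with them, at 14.81 to 14.98 in controls, 14.03 to 14.44 in Fh1-/- and 13.86 to 14.33 in the double knockouts, and its part in these falls was not tested.

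Other carriers were divided between those of general use and those of tubular reabsorption. Of 15 measured general carriers out of 19 listed, 2 rose in Fh1-/- and 4 in the double knockouts and none fell, with 2 lower at an unadjusted p under 0.05 in each; the medians were -0.07 and 0.01. Slc7a11, the light chain that exchanges cystine for glutamate, read 7.31 to 7.49 in controls, 9.26 to 10.10 in Fh1-/- and 10.33 to 11.38 in the double knockouts, with no overlap between the 3 groups. It rose by 2.20 and 3.30 log2 units. However, all controls lay under the 5th percentile of their arrays (7.77 to 7.80), at the dim end of the scale. The sizes of these differences are therefore uncertain. Its difference of 1.10 between the knockout groups did not pass (adjusted p = 0.0797). Slc7a6, a light chain for cationic and neutral amino acids, rose by 0.52 and 0.85, and Slc38a1 and Slc1a3 rose in the double knockouts by 0.93 and 0.56. Controls of Slc7a6 (7.76 to 7.99) and Slc38a1 (7.35 to 7.90) also lay near the dim end, so the sizes of their differences are uncertain too. With 1 array left out the calls of this list numbered 1 to 2 in Fh1-/- and 2 to 5 in the double knockouts, with 2 there without double-knockout replicate 2 or control replicate 3. Slc7a11 and Slc7a6 both pair with Slc3a2, which did not pass in either comparison.

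Of 15 measured genes of reabsorption out of 17 listed, 1 fell and 1 rose in Fh1-/-, and 5 fell and 1 rose in the double knockouts, with medians of -0.34 and -0.60. With 1 array left out the calls of both directions together numbered 0 to 4 in Fh1-/- and 4 to 7 in the double knockouts. In Fh1-/- they were 0 without control replicate 1 or Fh1-/- replicate 1 or 3, 1 without control replicate 2, 3 or 4 or Fh1-/- replicate 2, and 4 without Fh1-/- replicate 4. Cltrn, the partner that brings neutral amino acid carriers to the brush border, fell by 0.60 in both. Slc6a20b fell by 1.06, Slc7a8 by 0.70, Slc7a9 by 0.67 and Slc1a1 by 0.60 in the double knockouts. The exception was Slc38a3, a glutamine carrier of the basolateral membrane, which rose by 0.82 and 0.90. Slc7a12 had the largest positive difference of this list, 2.05 and 1.78, and did not pass (adjusted p = 0.259 and 0.248).

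**Figure D4:**
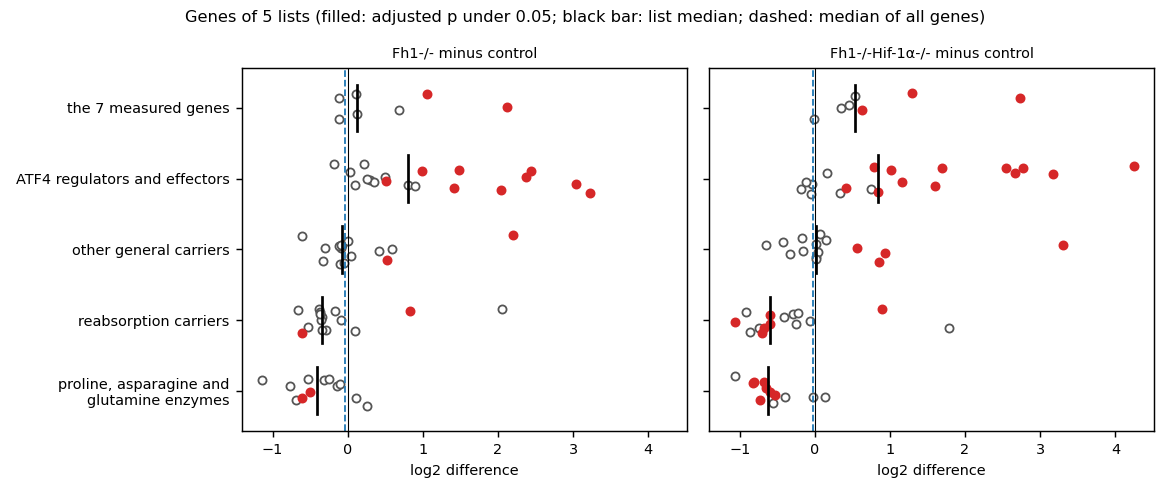
Log2 difference from control in Fh1-/- and Fh1-/-Hif-1α-/- kidneys for each gene of 5 lists by its brightest probe, with filled red points for adjusted p under 0.05, a black bar for the list's median and a dashed line for the median of all genes (-0.03 in both panels). The ATF4 list lies to the right, with medians of 0.80 and 0.84, and the enzyme and reabsorption lists lie to the left, with medians of -0.40 and -0.34 in the first panel and -0.63 and -0.60 in the second.

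The genes whose pattern over the 12 arrays was most like that of the brightest Asns probe, among 12344 genes by Pearson's r, were Mthfd2 (0.98), Ckmt1 (0.97), Gsta4 (0.97), Steap1 (0.97) and Eif4ebp1 (0.96). Mthfd2, a mitochondrial enzyme of one-carbon metabolism, differed from control by 1.95 and 2.47, and Gsta4, a glutathione transferase for lipid aldehydes, by 2.50 and 2.95. Group differences enter these correlations, and they share the arrays. All 5 also read higher on control replicate 4 than on the other controls: Mthfd2 read 10.31 against 8.89 to 9.14, and Gsta4 12.24 against 10.27 to 10.56. After subtraction of the group means r was 0.81 to 0.91, and without control replicate 4 it was 0.43 to 0.72, so much of the likeness within groups lay on that array. Of the other measured genes of the set, Aldh18a1 had the highest r with Asns over all arrays (0.87, and 0.32 after subtraction of the group means), then Slc1a5 (0.74 and 0.73) and Slc38a2 (0.73 and 0.21). By r over all arrays they ranked only 267, 1080 and 1110 among the 12344 genes, with Asns itself counted. Slc3a2 had r = 0.31 over all arrays and 0.85 after subtraction of the group means. Slc1a4 had 0.26 and -0.30 and Slc6a9 0.15 and -0.52, so the order differed once the group means were subtracted. Control replicate 4 enters these values too. It was the highest control for Asns (11.75), Slc3a2 (13.11) and Slc1a5 (8.06). For Slc6a9 it was the lowest control (11.04), and for Slc1a4 it was close to the lowest (9.89). Without that array r was not computed for these genes, so how far their values rest on it is not known.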

How the data were processed

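Values were the authors' normalised log2 signals of Illumina MouseWG-6 BeadChips, deposited for 12 arrays; per the study's methods, GenomeStudio signals were shifted to the 75th percentile in GeneSpring. The log2 scale was inferred from their range (6.40 to 16.60), and they are not centred, although the methods name a baseline transformation to the median of samples; the probe filter is not given in the sources used here. Columns were then aligned at their 75th percentiles, which moved none by over 0.04. Of 23863 probes, 19906 carried 1 symbol (12344 genes), 9 several and 3948 none. A second table of signals before normalisation has 24 per-sample columns whose names match no label. It was not used, so detection is not known.

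The 3 groups entered 1 fit in limma 3.58.1 (R 4.3.3) with a trended variance, tested on simulated data, and p-values were adjusted by Benjamini-Hochberg over all probes. Exact permutation tests were two-sided over 70 arrangements. Genes of lists were taken by their brightest probe. All probes of the 10 genes are named, with up to 6 called genes per list of largest difference in double knockouts (Fh1-/-Hif-1α-/-) against control, and the 5 most like Asns; Slc7a12, the eIF2α kinases and Prodh were named after their values were seen. Members and lists were chosen with earlier results of these data known. The labels do not say whether replicates are separate animals, so p-values measure the spread between these arrays. The 12 arrays limit the precision. Alternatives were other scalings, filters, tests, blocks, array weights, an Xist covariate, array sets, thresholds and each array left out.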

Additional observations from a re-analysis of the deposited data

Results flagged for a closer look

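Of 39 groups of 4 values examined (13 probes in 3 groups), 2 held an array far from the other 3, and both were control replicate 4. On the second Asns probe (ILMN_3006123) it read 9.44, with the other controls at 8.10 to 8.28. On Slc3a2 it read 13.11, with the other controls at 12.28 to 12.30. Such a gap arises by chance in about 1 group in 20, and the 3 probes of 1 gene are not separate cases.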

How the results depend on the processing

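Of the single-probe values of the 7 measured genes, 1029 kept their side of the threshold, 30 lost the call and 20 gained it. The 1029 include values that changed sign where neither fit passed. An example is Slc3a2 in Fh1-/- versus control, at -0.12 and, without control replicate 4, 0.09. The 1 change of sign that involved a call was Slc38a2 in double knockouts against control, which its dimmest probe gave as -0.16 (adjusted p = 0.325). Low signal limits the 3 probes of Slc1a5, the dimmest of Asns and Slc38a2, and the controls of Slc7a11. The controls of Slc38a1 (7.35 to 7.90) and Slc7a6 (7.76 to 7.99) were also near the dim end, as was control replicate 3 for Trib3 (7.66).

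Against the 4 of 13 probes of Fh1-/- versus control, the plain test without moderation gave 2, arrays numbered 1 and 2 alone gave 2, those numbered 3 and 4 alone gave 0 and an adjusted p under 0.01 gave 2, while leaving out 1 array gave 3 to 5. Against the 5 of double knockouts versus control, arrays 3 and 4 alone gave 0 and brightest probes alone 3 of 7, and leaving out 1 array gave 4 to 6. Between the knockout groups the count was 0 in every fit. The sets of arrays hold 2 per group, so fewer arrays enter those fits. The brightest-probe count is out of 7 probes, and the main fit likewise called 3 of these 7. The cause of the other changes was not tested.

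Over all probes, Fh1-/- versus control gave 1187 calls, and 3432 with array weights, 753 with the plain test, 265 and 56 within the array sets, 322 at an adjusted p under 0.01 and 276 at a fold of at least 2. Leaving out 1 array gave 448 (without control replicate 1) to 1413, with 450 without Fh1-/- replicate 3, 469 without Fh1-/- replicate 1, 670 and 738 without control replicates 3 and 2. Double knockouts versus control gave 3959, and 6709 with weights, 280 within arrays 3 and 4, 2586 of 12344 by brightest probe, 1587 and 797 at the stricter p and fold, and 2289 (without control replicate 1) to 4324 without 1 array, with 2318 without double-knockout replicate 2. Between the knockout groups 45 became 71 with weights, 29 with only those groups fitted, 9 with the plain test, 79 with the array set as a block, 0 within arrays 3 and 4, 120 with Xist as a covariate, 10 and 26 at the stricter p and fold, and 11 (without Fh1-/- replicate 2) to 60 without 1 array.

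Of the 61 other genes of the pathway lists, 15 were called in Fh1-/- versus control, and 27 with weights, 8 with the plain test, 5 and 6 within the array sets, 8 at the stricter p, 8 at the fold and 8 to 20 without 1 array, with 8 without control replicate 1, Fh1-/- replicate 1 or Fh1-/- replicate 3 and 9 without control replicate 2. The 29 of double knockouts became 8 within arrays 3 and 4, 17 at the stricter p, 11 at the fold and 22 to 30 without 1 array. Between the knockout groups 0 became 1 with weights and stayed 0 without 1 array. The r of Asns with Mthfd2 was 0.976 to 0.988 without 1 array.

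Arrays share replicate numbers across groups. Same-numbered arrays deviated together in 6 of 12 pairs (r over 0.1, range -0.31 to 0.50), and 7 of 12 arrays correlated best with one of their own number. No chance level was computed for these counts, so they cannot decide whether the numbers mark pairs. The study's methods name no pairing, and the main fit used none. With the replicate number as a block, 5 of 13 probes passed in each comparison with control and 0 between the knockout groups. Slc38a2 on its brightest probe then passed in Fh1-/- versus control (adjusted p = 0.0393).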
